A study of Homo sapiens with 16 samples.

Results

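Histone genes were followed in 8 human lymphoid cell lines before and after treatment with 2 drugs that act on chromatin. A gene counted as a histone gene when its annotated symbol began with H1-, H2A, H2B, H3- or H4 followed by a cluster or variant name; cluster H3 genes (H3C and a number) were included. The array's annotation named 74 such genes, and 49 of them had a probe set (a group of short oligonucleotides that together read 1 transcript) with no other gene's symbol. These 49 were among 11963 genes tested. By symbol, 42 were replication-dependent cluster genes (6 H1, 8 H2A, 12 H2B, 8 H3 and 8 H4 genes) and 7 were replacement or other variants: H1-10, H2AZ1, H2AZ2, H2AX, H2AJ, H2AP and H3-3A. The other 25 genes were read only by 29 probe sets that carry the symbols of several histone genes, and these are described separately.

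The samples were 4 lines labelled anaplastic large cell lymphoma (ALCL; Karpas 299, SU-DHL-1, JB6 and FE-PD) and 4 labelled T-cell lines (Molt-4, Molt-3, Jurkat and CCRF-CEM). Each line was hybridised once untreated and once treated, giving 16 one-colour HG-U133A arrays in 4 groups of 4. Treated cells received 1 µM 5-aza-2'-deoxycytidine (5-aza-dC), an inhibitor of DNA methylation, over 6 days, and 625 nM trichostatin A (TSA), an inhibitor of histone deacetylases, in the last 24 hours. The labels name no solvent control and no culture with 1 drug alone, so the drugs' effects cannot be told apart. Each cell line was grown in RPMI medium with serum and stands for itself with 1 array per condition, so p-values measure the spread between lines and not between repeat cultures.

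Histones are the proteins around which DNA is wrapped: H2A, H2B, H3 and H4 form the nucleosome core and H1 binds the linker DNA. Most histone genes lie in clusters, are transcribed mainly in S phase to supply new chromatin, and give mRNAs that end in a conserved stem-loop in place of a poly(A) tail. Replacement variants such as H2A.Z, H2A.X, H3.3 and H1x are encoded by genes outside the clusters, several of which are expressed throughout the cell cycle as polyadenylated mRNAs. Some cluster genes, H1-2, H2BC12 and H2BC21 among them, are also known to give polyadenylated mRNAs in cells that have stopped dividing. The labels state only that total RNA was turned into biotin-labelled target by the standard Affymetrix protocol. That protocol is known to prime on poly(A), so a level here may follow the polyadenylated form of a cluster mRNA more than its total amount, and the forms were not measured apart.

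Of the 49 genes, 38 lie on chromosome 6 according to RefSeq. Promoters (here the 250 bases before an annotated start) are shown for 6 genes with contrasting changes. They include 3 cluster genes that rose in both cell types (H1-2, H2BC12 and H2BC21) and 2 called in neither (H1-5 and H2BC14). The other is H2AZ1, the variant with the brightest probe set of its own. The sequences are from RefSeq, build GRCh38.p14, and are written 5′ to 3′ on the gene's strand. Capitals mark matches, on either strand, to 6 motifs known from histone promoters or from promoters in general. These are the TATA box (spelled TATAAA), the motif spelled CCAAT, the octamer spelled ATTTGCAT, the H1 box AAACACA, the E2F-type motif TTTCGCGC and the GC box GGGCGG.

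H1-2 (chr6:26056471-26056720, minus strand): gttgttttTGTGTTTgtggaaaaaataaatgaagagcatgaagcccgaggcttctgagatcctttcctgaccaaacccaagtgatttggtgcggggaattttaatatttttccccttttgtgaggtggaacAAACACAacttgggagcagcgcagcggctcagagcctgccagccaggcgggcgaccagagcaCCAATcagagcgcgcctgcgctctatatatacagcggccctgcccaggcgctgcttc
H1-5 (chr6:27867589-27867838, minus strand): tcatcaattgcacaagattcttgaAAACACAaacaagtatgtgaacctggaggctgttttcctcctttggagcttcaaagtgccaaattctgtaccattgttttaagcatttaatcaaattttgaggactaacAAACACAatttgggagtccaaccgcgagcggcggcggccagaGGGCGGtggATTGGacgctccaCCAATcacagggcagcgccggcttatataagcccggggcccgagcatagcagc
H2BC12 (chr6:27146859-27147108, minus strand): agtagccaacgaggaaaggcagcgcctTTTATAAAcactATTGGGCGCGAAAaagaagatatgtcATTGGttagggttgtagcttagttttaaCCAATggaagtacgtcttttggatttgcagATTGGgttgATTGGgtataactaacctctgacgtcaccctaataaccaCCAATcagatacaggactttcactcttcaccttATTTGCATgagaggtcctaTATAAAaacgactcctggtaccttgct
H2BC21 (chr1:149886683-149886932, minus strand): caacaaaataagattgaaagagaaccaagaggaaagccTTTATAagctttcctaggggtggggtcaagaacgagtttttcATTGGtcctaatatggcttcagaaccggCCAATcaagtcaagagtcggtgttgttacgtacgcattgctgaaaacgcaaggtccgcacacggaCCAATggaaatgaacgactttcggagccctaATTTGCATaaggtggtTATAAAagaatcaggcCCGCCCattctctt
H2BC14 (chr6:27814772-27815021, plus strand): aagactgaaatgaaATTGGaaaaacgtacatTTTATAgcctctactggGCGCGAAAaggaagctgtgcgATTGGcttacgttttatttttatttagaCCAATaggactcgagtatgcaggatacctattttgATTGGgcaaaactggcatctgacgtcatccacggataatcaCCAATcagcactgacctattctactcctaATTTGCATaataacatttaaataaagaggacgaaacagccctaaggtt
H2AZ1 (chr4:99950276-99950525, minus strand): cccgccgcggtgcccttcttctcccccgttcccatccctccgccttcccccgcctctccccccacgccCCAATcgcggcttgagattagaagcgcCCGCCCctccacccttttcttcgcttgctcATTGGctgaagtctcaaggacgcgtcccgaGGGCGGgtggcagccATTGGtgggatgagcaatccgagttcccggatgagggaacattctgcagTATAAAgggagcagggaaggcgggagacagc

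Among these, H1-2 and H1-5 share the H1 box and CCAAT, although H1-5 was called in neither cell type. H2BC12, H2BC21 and H2BC14 share CCAAT and the octamer, although H2BC14 was called in neither cell type alone (its averaged effect was 0.22, adjusted p = 0.0439). In H2BC12 a reverse TATA box overlaps a forward one, and a reverse CCAAT lies directly beside a reverse E2F-type motif, so both pairs appear as 1 run of capitals. The H2AZ1 promoter holds a TATA box, GC boxes and CCAAT, but neither octamer nor H1 box. Across the genes, 46 of the 49 were matched to a RefSeq promoter, with 52 start sites in all. The octamer was found at 15 of 42 start sites of cluster genes (35.7%), against 1.63% of 35116 RefSeq promoters of the same length. It was found at 6 of 8 H2A and 9 of 13 H2B start sites, and at none of the H1, H3, H4 or variant ones. The H1 box was found at all 6 cluster H1 start sites, against 4.82% of all promoters, and CCAAT at every H1, H2A, H2B and H3 cluster start site but only 2 of 7 H4 ones (32% of all promoters). The GC box showed the opposite balance, at 8 of 42 cluster start sites (19%) and 6 of 10 variant ones (60%), against 42.6% of all promoters. These matches describe letters and not binding. Averaged treatment changes are the mean of the effects in both cell types. In the 8 matched H2B cluster genes with an octamer they ran from 0.22 to 3.21 on the log2 scale (median 1.31). In the 3 without one they ran from 0.25 to 2.55 (median 0.30), the highest being H2BC5. The probe set of H2BC5 can match related transcripts, as can those of H2BC6 and H2BC9, which have an octamer. The H2A medians were 1.42 in 6 genes with an octamer and 0.88 in 2 without. A part of the octamer in these changes was not tested.

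Treatment was followed by higher levels of most cluster histone genes in the T-cell lines and of a smaller number in the ALCL lines. Of the 7 variants, those with the brightest probe sets of their own were lower or not called. Of 8 probe sets shared by the H3.3 genes, most of them bright, 5 were called higher in the T-cell lines. Of the 42 cluster genes, 34 rose in the T-cell lines and 0 fell (limma, Benjamini-Hochberg adjusted p below 0.05 over all 11963 genes), where 21.7% of all genes tested were called higher and 20.2% lower. In the ALCL lines 12 of 42 rose and 0 fell, where 8.04% of all genes were called higher and 13.4% lower. The median change of the cluster genes was 0.83 on the log2 scale in the T-cell lines and 0.34 in the ALCL lines, beside 0.14 and 0.09 for all genes. Of the 7 variants, 3 rose and 2 fell in the T-cell lines (median change 0.18), and 0 rose and 3 fell in the ALCL lines (median 0.16). The effect averaged over both cell types was called higher for 33 cluster genes and 3 variants and lower for 3 variants, where 53.6% of all genes were called, 29.9% higher and 23.7% lower. A value after ± is the standard error of a log2 difference, from the limma fit, and every adjusted p of a gene is from limma.

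**Figure D1:**
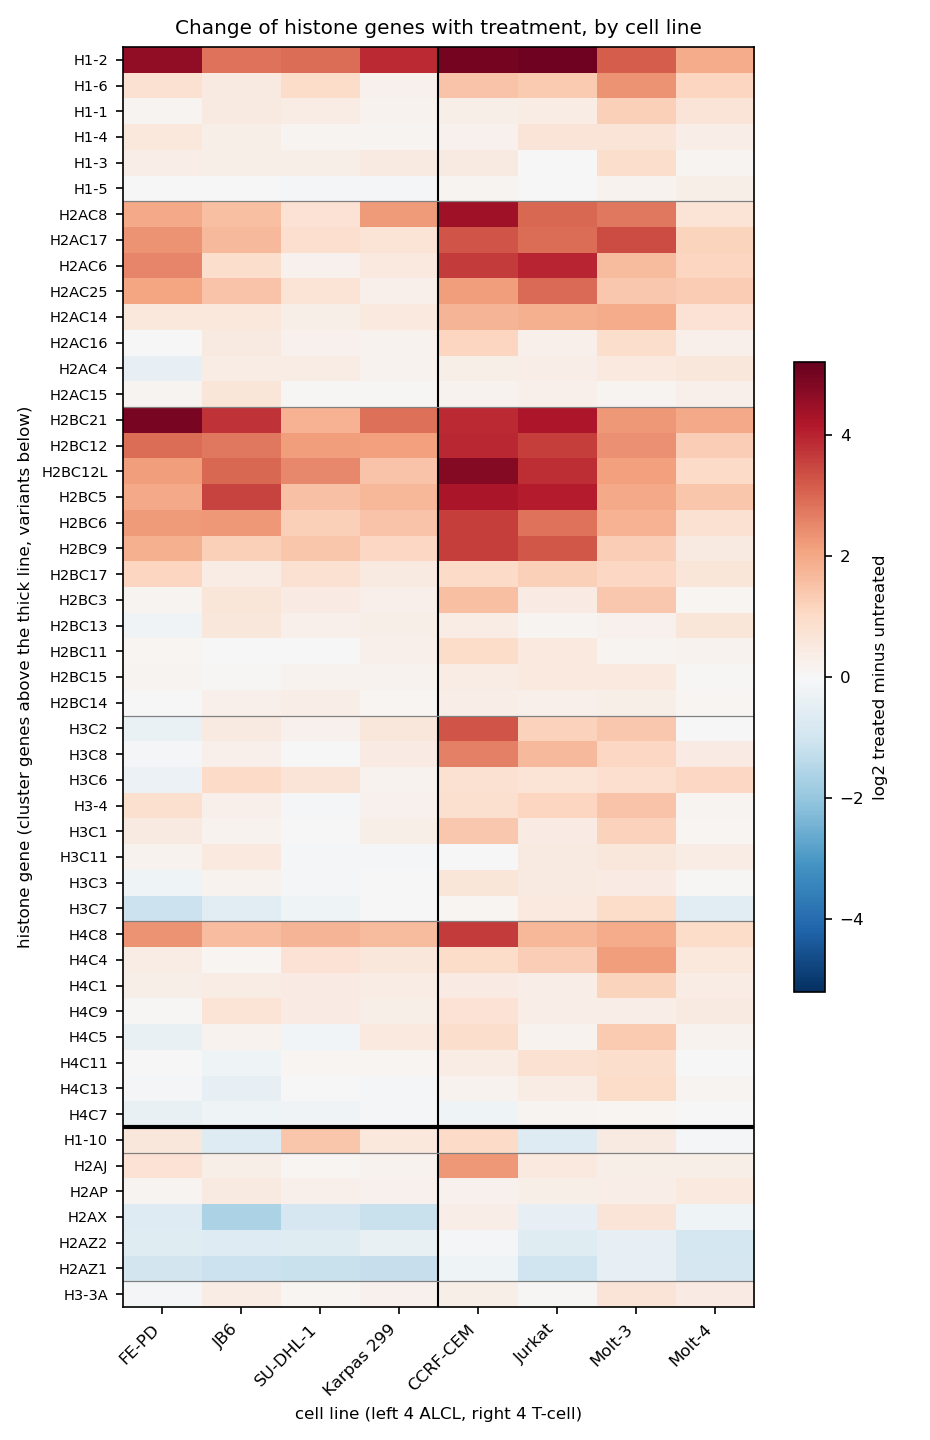
Each cell of the map is the log2 difference, treated minus untreated, of 1 histone gene (rows) in 1 cell line (columns; 4 ALCL lines on the left, 4 T-cell lines on the right), with red for higher and blue for lower after treatment. H1-2 and a block of H2A and H2B genes are red in every line, most cluster H3 and H4 genes are pale in the ALCL lines, and H2AZ1 and H2AZ2 are blue in all 8 lines.

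After treatment 25 of 42 cluster genes (59.5%) were higher in 8 of 8 lines, beside 15.2% of all genes. Line by line, the median change of the cluster genes was 0.24 in FE-PD, 0.47 in JB6, 0.33 in SU-DHL-1, 0.31 in Karpas 299, 0.95 in CCRF-CEM, 0.69 in Jurkat, 1.19 in Molt-3 and 0.43 in Molt-4. All-gene medians in the same lines lay between -0.05 and 0.17. Molt-3 thus had the largest median of the 8 lines, and all 42 cluster genes were higher there. Without Molt-3, 18 cluster genes and 0 variants were called higher in the T-cell lines, where all genes called higher went from 2601 to 939. Without JB6, 6 cluster genes were called higher in the ALCL lines, where all genes called higher went from 962 to 506. Whichever of the 8 lines was left out, 18 of the 39 calls in the T-cell lines and 8 of the 15 in the ALCL lines were kept. Leaving out Molt-3 ended 20 T-cell calls, among them those of H1-1, H1-4, H2AC16, H2BC3, H3-4, H3C1, H3C2, H4C1, H4C5 and H4C9, with adjusted p between 0.0539 and 0.163.

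**Figure D2:**
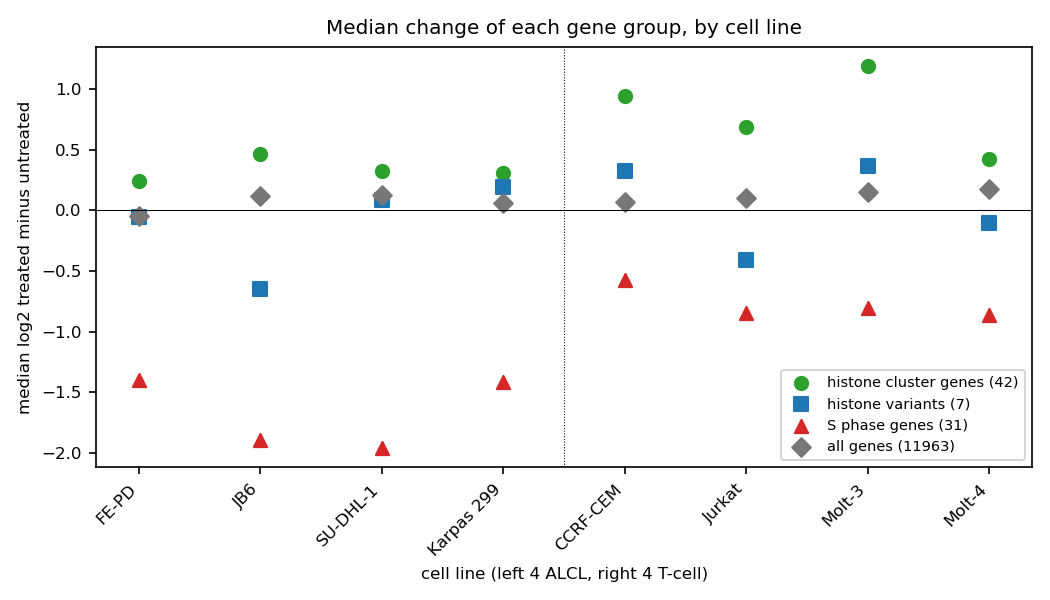
Points give the median log2 difference, treated minus untreated, of 4 gene groups (vertical axis) in each cell line (horizontal axis): 42 cluster histone genes, 7 histone variants, 31 S phase genes and all 11963 genes. The cluster histone genes lie above all genes in all 8 lines and the S phase genes lie below 0 in all 8.

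The linker histone family held the strongest responder. H1-2, a linker histone found in most cell types, stood at 7.88, 7.64, 7.41 and 8.23 on the log2 scale in the untreated ALCL lines (in the order FE-PD, JB6, SU-DHL-1, Karpas 299, kept throughout), and at 12.49, 10.46, 10.30 and 12.11 after treatment. In the T-cell lines (in the order CCRF-CEM, Jurkat, Molt-3, Molt-4) it stood at 6.71, 6.84, 6.79 and 6.75 untreated and at 11.70, 11.91, 9.94 and 8.70 treated. Every treated array lay above every untreated one, and the 4 untreated T-cell lines differed by little while their treated levels spread widely. H1-2 rose by 3.79 ± 0.49 in the T-cell lines (13.8-fold, limma adjusted p = 0.000461, n = 4 lines) and by 3.55 ± 0.49 in the ALCL lines (11.7-fold, adjusted p = 0.00111, n = 4). Among all 11963 genes this change ranked 4 from the highest in the T-cell lines and 7 in the ALCL lines.

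The other cluster H1 genes moved less. H1-6, the testis-specific linker histone, was higher in all 8 lines; its change was between 1.12 and 2.34 in the T-cell lines, where it rose by 1.57 ± 0.20 (adjusted p = 0.00044), and between 0.21 and 0.96 in the ALCL lines, where it was not called (adjusted p = 0.0547). H1-1 and H1-4 rose in the T-cell lines by 0.65 and 0.48, and both were uncalled in the ALCL lines. H1-3 and H1-5 were called in neither cell type, and the changes of H1-5 in single lines ran from -0.11 to 0.29. H1-10, the replacement linker histone H1x, changed in both directions: it differed by 1.43 in SU-DHL-1 and 1.01 in CCRF-CEM but by -0.65 in both JB6 and Jurkat, and was called in neither cell type.

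H2B had the largest share of called genes in the ALCL lines, 7 of 12, with 10 of 12 in the T-cell lines. H2BC21, a replication-dependent H2B gene on chromosome 1, stood at 6.02, 5.67, 6.29 and 7.26 in the untreated ALCL lines (FE-PD, JB6, SU-DHL-1, Karpas 299) and at 10.95, 9.42, 8.11 and 10.14 after treatment. H2BC21 in the T-cell lines (CCRF-CEM, Jurkat, Molt-3, Molt-4) went from 6.13, 5.81, 5.91 and 6.24 to 10.02, 10.00, 8.17 and 8.20. Treated and untreated arrays did not overlap, and the change in FE-PD, 4.93, was the largest of any of the 49 genes in an ALCL line. H2BC21 rose by 3.35 ± 0.49 in the ALCL lines (10.2-fold, adjusted p = 0.00142) and by 3.07 ± 0.49 in the T-cell lines (8.42-fold, adjusted p = 0.00128).

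H2BC12, an H2B gene on chromosome 6, started higher. Its untreated levels were 8.26, 8.22, 8.10 and 8.98 in the ALCL lines and 8.52, 7.31, 7.53 and 8.12 in the T-cell lines, and its treated levels were 11.18, 10.96, 10.27 and 11.12 and 12.46, 10.90, 9.91 and 9.41. Here too all 8 treated arrays lay above all 8 untreated ones. It rose by 2.50 ± 0.36 in the ALCL lines (5.64-fold, adjusted p = 0.00141) and by 2.80 ± 0.36 in the T-cell lines (6.95-fold, adjusted p = 0.000467).

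**Figure D3:**
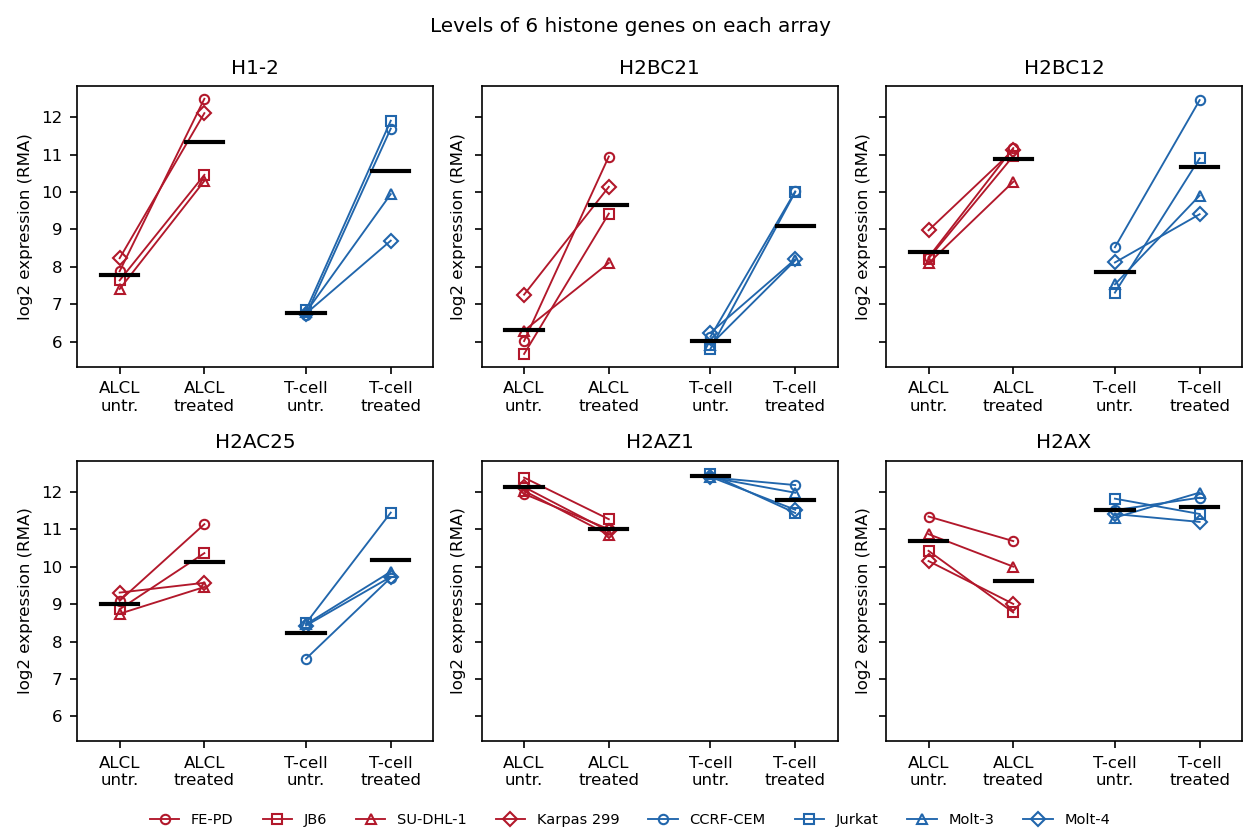
Each panel plots the deposited log2 expression (vertical axis) of 1 histone gene in untreated and treated ALCL lines (red) and T-cell lines (blue); lines join the 2 arrays of a cell line and black bars are means of 4. H1-2, H2BC21 and H2BC12 rise in all 8 lines without overlap, H2AZ1 is lower in all 8 treated lines, and H2AX separates the cell types after treatment.

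H2BC5 and H2BC12L, an H2B gene copy on chromosome 21, were read by x_at probe sets, whose oligonucleotides can match related transcripts. Their levels differed by at most 0.81 on any array (r = 0.96 across the 16 arrays, given as a description), so they may not be separate measurements. H2BC5 went from 8.57, 7.18, 7.61 and 9.08 to 10.52, 10.68, 9.15 and 10.81 in the ALCL lines and from 7.83, 7.24, 7.62 and 7.71 to 12.06, 11.33, 9.59 and 9.13 in the T-cell lines. It rose by 2.93 ± 0.47 in the T-cell lines (adjusted p = 0.00148) and by 2.18 ± 0.47 in the ALCL lines (adjusted p = 0.0102), and H2BC12L by 2.94 ± 0.50 and 2.29 ± 0.50 (adjusted p = 0.00202 and 0.0109). Without JB6 neither was called in the ALCL lines, with changes of 1.74 for H2BC5 (adjusted p = 0.0591) and 2.05 for H2BC12L (adjusted p = 0.0619).

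Further H2B genes were called in both cell types. H2BC6 changed by 2.22, 2.25, 1.23 and 1.50 in the ALCL lines and by 3.60, 2.83, 1.79 and 0.81 in the T-cell lines (fitted 1.80 ± 0.37 and 2.26 ± 0.37, adjusted p = 0.00821 and 0.00169). H2BC9 changed by 1.85, 1.25, 1.44 and 1.08 and by 3.61, 3.22, 1.29 and 0.45 (fitted 1.41 ± 0.44 and 2.14 ± 0.44, adjusted p = 0.0446 and 0.00472). Molt-4 thus had the smallest change of both genes. The call of H2BC9 in the ALCL lines was lost when FE-PD, JB6, SU-DHL-1, Karpas 299 or Molt-3 was left out, with adjusted p between 0.0515 and 0.124. H2BC17, a low-level gene, changed by 0.38 to 1.25 in the 8 lines and rose by 0.99 in the T-cell lines and 0.69 in the ALCL lines (adjusted p = 0.00114 and 0.0112). H2BC3, H2BC11 and H2BC15 rose in the T-cell lines by 0.88, 0.44 and 0.37 and were uncalled in the ALCL lines. The call of H2BC11 was lost without CCRF-CEM, Jurkat, Molt-3 or Molt-4, and that of H2BC15 without CCRF-CEM, Jurkat or Molt-3. H2BC13 and H2BC14 were called in neither cell type; H2BC14 differed by at most 0.36 in any line.

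Of the 8 cluster H2A genes, 7 rose in the T-cell lines and 3 in the ALCL lines. H2AC8 changed by 1.99, 1.58, 0.76 and 2.21 in the ALCL lines and by 4.42, 2.99, 2.74 and 0.71 in the T-cell lines. H2AC17 changed by 2.33, 1.69, 0.88 and 0.72 and by 3.28, 2.90, 3.41 and 1.15, and H2AC6 by 2.53, 0.92, 0.24 and 0.50 and by 3.63, 3.95, 1.65 and 1.11. All 3 encode replication-dependent H2A, and all were higher in 8 of 8 lines with the smallest T-cell change in Molt-4. They rose in the T-cell lines by 2.71 ± 0.46, 2.68 ± 0.36 and 2.59 ± 0.49 (adjusted p = 0.00197, 0.000609 and 0.00322). In the ALCL lines H2AC8 rose by 1.63 ± 0.46 (adjusted p = 0.032) and H2AC17 by 1.41 ± 0.36 (adjusted p = 0.022), while H2AC6 was not called at 1.05 ± 0.49 (adjusted p = 0.151). Leaving out FE-PD or JB6 ended both ALCL calls, with adjusted p of 0.0805 and 0.103 for H2AC8 and of 0.0743 and 0.0966 for H2AC17; leaving out Karpas 299 also ended that of H2AC8 (0.0949).

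H2AC25, on chromosome 1, was the cluster H2A gene with the brightest probe set of its own. It stood at 9.09, 8.86, 8.74 and 9.31 in the untreated ALCL lines and at 11.14, 10.36, 9.46 and 9.57 after treatment. In the T-cell lines it went from 7.54, 8.49, 8.46 and 8.43 to 9.71, 11.45, 9.87 and 9.73. The groups did not overlap in either cell type. It rose by 1.96 ± 0.32 in the T-cell lines (3.88-fold, adjusted p = 0.00153) and by 1.13 ± 0.32 in the ALCL lines (2.19-fold, adjusted p = 0.0311), where Karpas 299 changed by 0.26. The ALCL call was lost without FE-PD (adjusted p = 0.0973), JB6 (0.132) or SU-DHL-1 (0.0582). H2AC14 rose in the T-cell lines by 1.58 ± 0.18 (adjusted p = 0.000303) and differed by 0.48 ± 0.18 in the ALCL lines, uncalled (adjusted p = 0.0892). H2AC16 and H2AC4 rose in the T-cell lines by 0.64 and 0.44, and H2AC15 was called in neither cell type. The call of H2AC4 was lost without Karpas 299 or any 1 of the T-cell lines, with adjusted p between 0.0534 and 0.147.

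On probe sets of their own, most cluster H3 and H4 genes rose in the T-cell lines, and none but H4C8 was called in the ALCL lines. The 2 probe sets shared by 10 H3 genes were called higher in both cell types and are given below. Of 8 H3 genes, 6 rose in the T-cell lines and 0 were called in the ALCL lines. Of these 8, 0 had an unadjusted limma p below 0.05 in the ALCL lines, against 4349 of all 11963 genes. H3C8 stood at 7.11, 6.68, 7.61 and 7.36 in the untreated T-cell lines and at 9.72, 8.35, 8.68 and 7.77 treated, against 8.10, 7.31, 7.47 and 7.40 untreated and 8.05, 7.56, 7.45 and 7.81 treated in the ALCL lines. The treated T-cell arrays lay above the untreated ones, and the ALCL arrays overlapped. H3C8 rose by 1.44 ± 0.28 in the T-cell lines (adjusted p = 0.00384) and differed by 0.15 ± 0.28 in the ALCL lines (adjusted p = 0.718). The difference between the 2 effects was -1.29 (adjusted p = 0.178), so a difference between the cell types was not established. H3C2 rose by 1.48 ± 0.40 in the T-cell lines with changes from 0.02 in Molt-4 to 3.29 in CCRF-CEM. H3-4, a testis-expressed H3 gene on chromosome 1, H3C6, H3C1 and H3C3 rose there by between 0.39 and 0.90. H3C7 and H3C11 were called in neither cell type. The call of H3C3 was lost without CCRF-CEM, Jurkat or Molt-3.

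H4C8 was the H4 gene that rose in both cell types. Its untreated levels were 5.16, 4.78, 4.68 and 5.08 in the ALCL lines and 4.85, 4.96, 4.66 and 4.87 in the T-cell lines, and its treated levels were 7.51, 6.40, 6.43 and 6.75 and 8.48, 6.67, 6.60 and 5.82. No treated array overlapped an untreated one. It rose by 1.85 ± 0.34 (3.6-fold, adjusted p = 0.00435) in the ALCL lines and by 2.06 ± 0.34 (4.17-fold, adjusted p = 0.00159) in the T-cell lines. H4C4 rose in the T-cell lines by 1.23 ± 0.23 (adjusted p = 0.00281), most in Molt-3 (2.16). H4C1, H4C5, H4C9, H4C11 and H4C13 rose there by between 0.42 and 0.66, and H4C7 was not called at -0.01. H4C13 was higher in 4 of 4 T-cell lines and lower in 4 of 4 ALCL lines, but its call in the T-cell lines (adjusted p = 0.048) was lost without any 1 of 7 lines, JB6 being the exception. The call of H4C11 was lost without Jurkat or Molt-3.

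**Figure D4:**
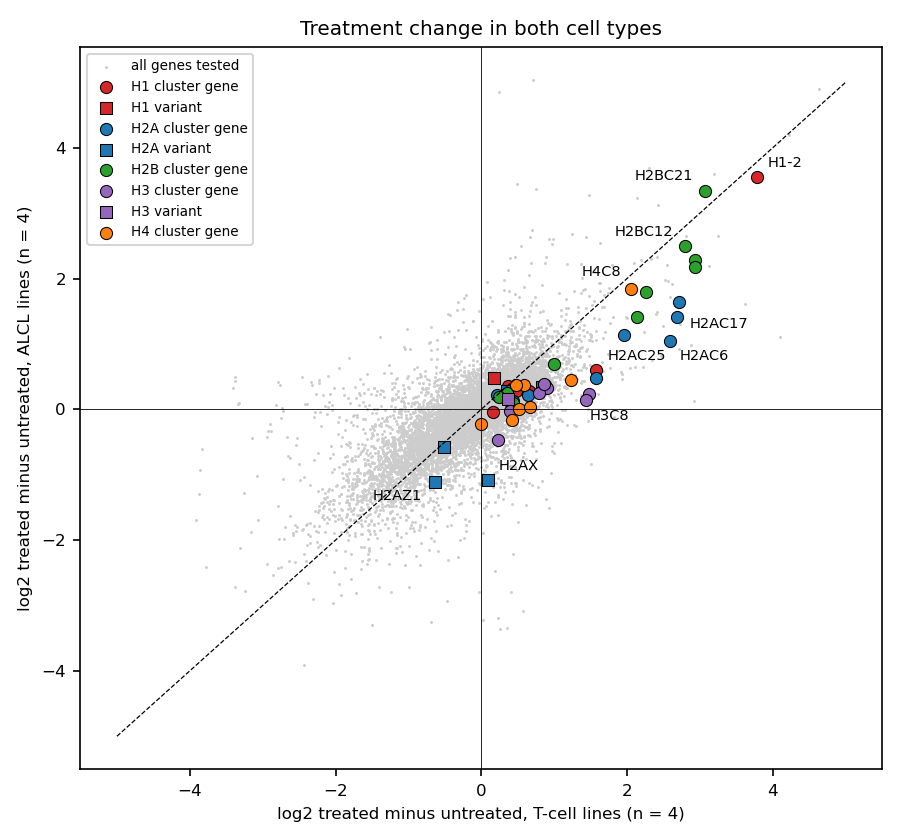
Each point is a gene, placed by its fitted log2 difference, treated minus untreated, in the T-cell lines (horizontal axis) and the ALCL lines (vertical axis); histone genes are coloured by family, circles for cluster genes and squares for variants, and the dashed line marks equal change. H1-2, H2BC21 and H2BC12 lie far out near the line, many H2A, H3 and H4 genes lie to the right of it, and the squares of H2AZ1 and H2AX lie below 0.

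The H2A variants on bright probe sets were lower or uncalled. Lower calls were common among bright genes. Of 2018 genes with an untreated mean of 9 or more, 1015 fell in the T-cell lines and 777 in the ALCL lines. H2AZ1, which encodes H2A.Z, a variant placed beside transcription start sites, stood at 11.95, 12.38, 12.03 and 12.13 in the untreated ALCL lines and at 11.00, 11.27, 10.85 and 10.95 treated. The T-cell lines went from 12.39, 12.47, 12.39 and 12.40 to 12.18, 11.44, 11.98 and 11.52. Every treated level was below every untreated level within each cell type. It fell by 1.10 ± 0.15 in the ALCL lines (2.15-fold lower, adjusted p = 0.00106) and by 0.63 ± 0.15 in the T-cell lines (1.55-fold lower, adjusted p = 0.00929; 0.0518 without Molt-4). A further H2AZ1 probe set fell by 0.85 in the ALCL lines (adjusted p = 0.00202) and was uncalled at -0.26 in the T-cell lines.

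H2AZ2, which encodes the second H2A.Z protein, was lower in all 8 lines on its brightest probe set, by 0.38 to 0.66 in the ALCL lines and 0.07 to 0.90 in the T-cell lines. It fell by 0.57 ± 0.14 (adjusted p = 0.019) and 0.51 ± 0.14 (adjusted p = 0.0194). Its other probe sets differed by 0.75 and 0.39 in the ALCL lines and by 0.22 and 0.09 in the T-cell lines, none of them called, so the direction for this gene depends on the probe set. Its ALCL call was lost without JB6 or SU-DHL-1, and its T-cell call without Jurkat, Molt-3 or Molt-4.

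H2AX encodes H2A.X, which is phosphorylated around DNA breaks. It stood at 11.34, 10.43, 10.87 and 10.15 in the untreated ALCL lines and at 10.69, 8.78, 10.00 and 9.01 treated, lower in 4 of 4 lines although the groups overlapped. In the T-cell lines it went from 11.51, 11.82, 11.31 and 11.41 to 11.85, 11.41, 11.98 and 11.20, higher in 2 lines and lower in 2. It fell by 1.08 ± 0.21 in the ALCL lines (adjusted p = 0.00523) and differed by 0.10 ± 0.21 in the T-cell lines (adjusted p = 0.711). The difference of the effects was -1.18 (adjusted p = 0.0897). Its 3 dimmer probe sets were uncalled in both cell types, with ALCL differences of -0.63, -0.18 and 0.05.

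The remaining variants were low or moved little on probe sets of their own. H3-3A, 1 of 2 genes for the replacement histone H3.3, was read by a dim probe set (mean 6.42 over the untreated arrays). It rose by 0.37 in the T-cell lines (adjusted p = 0.0455), a call lost without SU-DHL-1, Karpas 299, CCRF-CEM, Molt-3 or Molt-4. The brighter probe sets shared by the H3.3 genes are given below. H2AP rose in the T-cell lines by 0.35 (adjusted p = 0.0309), a call lost without Jurkat, Molt-3 or Molt-4. H2AJ rose by 0.84 ± 0.29 (adjusted p = 0.041), with a change of 2.25 in CCRF-CEM and of 0.30 to 0.49 in the other T-cell lines; the call was lost when any 1 line except FE-PD was left out (0.37 without CCRF-CEM). None of these was called in the ALCL lines. Of the other H2A and H3 variants that lie outside the symbol rule, MACROH2A1 fell by 0.80 in both cell types, CENPA, the centromeric H3, fell by 0.79 in the T-cell lines and was uncalled at -0.77 in the ALCL lines (adjusted p = 0.0722), and MACROH2A2 was called in neither.

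As groups, the cluster genes changed more than the variants in every line, by 0.11 (Karpas 299) to 1.12 (JB6) in the class medians. The difference between the class medians of the fitted changes was 0.65 in the T-cell lines and 0.18 in the ALCL lines. With x_at and s_at probe sets left out, both class medians were 0.28 in the ALCL lines. The classes also differed in their level before treatment. No cluster gene had a mean of 9 or more over the 8 untreated arrays, while 4 variants (H2AZ1, H2AZ2, H2AX and H1-10) did, so the classes could not be compared at that level. Those 4 variants had median changes of -0.21 in the T-cell lines and -0.83 in the ALCL lines, beside -0.56 and -0.45 for all genes at that level. In the T-cell lines 2 of the 4 were called lower, as were 1015 of all 2018 genes at that level. In the ALCL lines 3 of the 4 were called lower, beside 777 of the 2018. The 6 cluster genes with untreated means from 7.5 to 9 (H2AC14, H2AC25, H2BC5, H2BC12, H2BC12L and H4C11) had median changes of 2.38 and 1.66, with 6 called higher in the T-cell lines and 4 in the ALCL lines. Of all genes at that level, 15.8% and 8.42% were called higher, with median changes of -0.13 and -0.07. Among the 16 cluster genes with an untreated mean below 5.5, 11 rose in the T-cell lines and 4 in the ALCL lines (median changes 0.54 and 0.22), beside 22.9% and 5.31% of all genes at that level (medians 0.22 and 0.14). From 5.5 to 6.5, 9 of 11 cluster genes rose in the T-cell lines and 1 in the ALCL lines (medians 0.90 and 0.38). Of all genes there, 30.5% and 9.21% rose (medians 0.30 and 0.20), so the ALCL share was near that of all genes. From 6.5 to 7.5, 8 of 9 rose in the T-cell lines and 3 in the ALCL lines (medians 0.87 and 0.35). Of all genes at that level, 31.3% and 10.4% rose (medians 0.29 and 0.18).

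**Figure D5:**
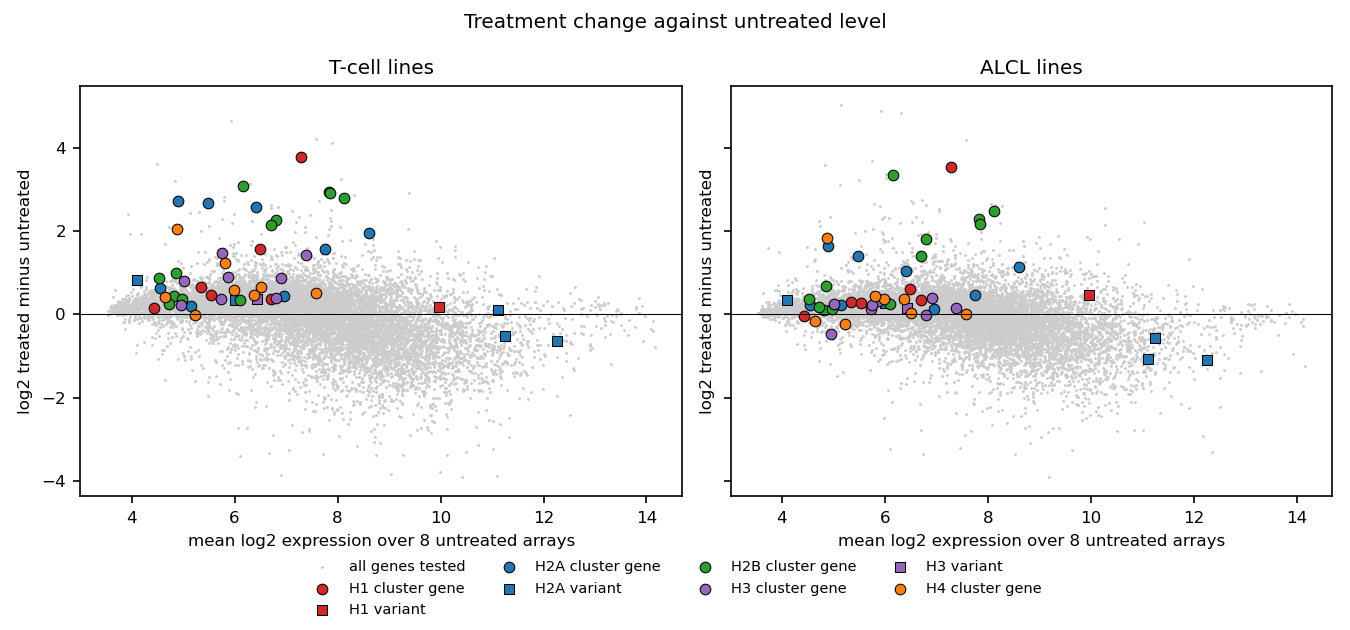
Each point is a gene, placed by its mean log2 expression over the 8 untreated arrays (horizontal axis) and its fitted log2 difference, treated minus untreated (vertical axis), in the T-cell lines (left) and the ALCL lines (right); histone genes are coloured by family, circles for cluster genes and squares for variants. The 6 cluster genes with untreated means from 7.5 to 9 lie between 0.52 and 2.94 in the T-cell lines and between 0.00 and 2.50 in the ALCL lines; the 4 variants at 9 or more, where there is no cluster gene, lie between -1.10 and 0.47 over both.

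Probe sets shared by several histone genes cannot be assigned to 1 gene, but they cover the 25 genes with no probe set of their own. Of these 29 probe sets, 23 were higher and 0 lower in the T-cell lines (adjusted over all probe sets), and 9 were higher and 1 lower in the ALCL lines, with median changes of 1.10 and 0.48. Of all 22215 probe sets in that fit, 20.4% were called higher and 18.4% lower in the T-cell lines, and 6.69% higher and 11.6% lower in the ALCL lines. The 5 shared H2B probe sets had T-cell changes of 1.45 to 4.43 and ALCL changes of 1.28 to 3.09. The 5 shared H2A probe sets reached 4.02 in the T-cell lines and 3.71 in the ALCL lines. The 2 probe sets shared by 10 H3 genes changed by 3.33 and 1.19 in the T-cell lines and by 3.09 and 0.66 in the ALCL lines. All of these H3 changes were called higher. The 8 probe sets shared by the H3.3 genes, most of them bright, had changes between -0.06 and 1.10 in the T-cell lines, with 5 called higher, and between -0.03 and 0.48 in the ALCL lines, where 0 of 8 were called. A probe set that carries 3 H2A.B symbols, variants by the symbol rule, was called higher in both cell types. It rose by 0.85 in the T-cell lines and 0.84 in the ALCL lines (limma adjusted p = 0.00438 and 0.00763). A bright probe set that carries 14 H4 symbols fell by 1.23 in the ALCL lines (adjusted p = 0.00189) and was uncalled at -0.24 in the T-cell lines, while the other 5 shared H4 probe sets were uncalled in the ALCL lines at 0.14 to 0.28.

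Histone genes of divergent pairs share a promoter region, and 3 such H2A and H2B pairs had both genes measured. H2AC14 and H2BC14 start 245 bases apart, and in the T-cell lines the first rose by 1.58 while the second was uncalled at 0.24. H2AC17 and H2BC17 start 240 bases apart and rose by 2.68 and 0.99. H2AC15 and H2BC15 start 194 bases apart and differed by 0.21 (uncalled) and 0.37 (called). Within each pair the genes were read by different probe sets, so the sizes of their changes are not on a common scale.

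Between the cell types few histone genes differed. In untreated lines 2 of 49 were called, where 8.76% of all genes were, 3.18% higher and 5.58% lower in the ALCL lines. H1-2 was 1.02 ± 0.17 higher in the ALCL lines (adjusted p = 0.0108), the lowest ALCL level of 7.41 lying above the highest T-cell level of 6.84. H1-10 stood at 9.78, 8.62, 9.14 and 9.34 in the ALCL lines and at 10.61, 11.36, 10.62 and 10.28 in the T-cell lines, a difference of -1.50 ± 0.30 (adjusted p = 0.0212; 0.0609 without Molt-3), with no overlap. In treated lines 1 of 49 was called, where 2.88% of all genes were, 1.35% higher and 1.53% lower in the ALCL lines. H2AX was 1.99 ± 0.41 lower in the ALCL lines (adjusted p = 0.0352). That call was lost when any 1 of 7 lines was left out (adjusted p between 0.0524 and 0.124) and kept without FE-PD. H1-2 was uncalled between treated lines at 0.78 ± 0.77 (adjusted p = 0.715).

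Whether the treatment effect itself differed between the cell types was tested as an interaction. None of the 49 was called by limma, where 1.68% of all genes were. At an unadjusted p below 0.05 there were 11, against 1551 of all 11963 genes, and the median difference, ALCL minus T-cell, was -0.43 for the histone genes and -0.05 for all genes. The lowest adjusted p, 0.0741, belonged to H2AC14 (-1.10 ± 0.26). The larger number of calls in the T-cell lines is therefore not shown, gene by gene, to be a different response.

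Many genes that supply or handle histones were lower over the same arrays. In the averaged effect 29.9% of all genes were called higher and 23.7% lower (median 0.12). Of 31 S phase genes, a list of replication factors and nucleotide synthesis enzymes, 0 were called higher and 29 lower in that effect (median -1.29). MCM7, a subunit of the replicative helicase, fell by 2.81 in the ALCL lines and 1.72 in the T-cell lines, and TYMS, the thymidylate synthase, by 3.30 and 1.50. Of 45 histone chaperones and assembly factors 2 were higher and 33 lower (median -0.83); CHAF1A, a subunit of the replication-coupled chaperone CAF-1, fell by 1.07 and 0.44, and SSRP1, a subunit of the FACT chaperone, by 0.91 and 1.42. Of 27 genes for histone mRNA processing and transcription 3 were higher and 13 lower (median -0.32). NFYB and NFYC, subunits of the factor that binds CCAAT, fell by 0.88 and 1.16 in the ALCL lines and by 1.12 and 1.50 in the T-cell lines. So the rise of cluster histone genes and the fall of S phase genes were seen on the same arrays; whether they are connected was not tested.

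Facts of the arrays that bear on these values are as follows. The spread of values was narrower on the treated array in 8 of 8 lines. A probe set for 28S ribosomal RNA was at 12.05 to 14.26 on the treated arrays of 5 lines (Molt-3, Molt-4 and the ALCL lines other than Karpas 299) and at 6.81 to 8.15 on the other 3, beside 6.60 to 7.62 on the untreated ones. In the T-cell lines without that rise the cluster genes had a median change of 0.84 with 19 called. In those with it the median was 0.77 with 19 called. Of all genes, 501 and 1418 were called higher in these T-cell lines. H1-2 changed by 5.03 and 2.55 there, and by 3.88 and 3.44 in the ALCL lines without and with it. The hybridisation spikes were brighter on the treated array in 7 of 8 lines; centring on them moved the median change of all genes to -0.54 in the T-cell lines and -0.52 in the ALCL lines, and centring on the 75th percentile moved it to 0.42 and 0.26. On the spike scale 12 histone genes rose and 2 fell in the T-cell lines, where 63 of all genes rose and 2943 fell. In the ALCL lines 7 rose and 3 fell on that scale, where 73 of all genes rose and 1974 fell. On the 75th percentile scale 43 histone genes rose and 0 fell in the T-cell lines (all genes 5923 and 1714). In the ALCL lines 20 rose and 2 fell on it (all genes 2108 and 1249). On the spike scale the family medians of cluster H2A and H2B stayed above 0 in both cell types (0.16 to 1.08), while those of H1 and H4 were below 0 in both and that of H3 was below 0 in the ALCL lines. The signal of the 3′ probe set of ACTB minus that of its 5′ probe set, a sign of RNA or target length, was -0.65 to -0.29 on untreated and -0.37 to 0.70 on treated arrays and higher after treatment in 7 of 8 lines, by up to 1.13. The part of these array measures in the histone changes was not tested beyond the scalings and line subsets given. The labels were checked against markers: before treatment the ALCL lines exceeded the T-cell lines in 6 of 7 ALCL markers and were lower in 5 of 7 T-cell markers. After treatment 5 of 7 T-cell markers fell and 4 of 7 ALCL markers rose in the T-cell lines (median changes -1.68 and 0.61), 1 of 4 B-cell markers and 1 of 5 epithelial markers rose, and 0 of 4 myeloid and 0 of 2 erythroid markers were called. In the ALCL lines 1 of 7 ALCL markers rose and 2 fell, and none of the markers of other cell types was called; their part in the histone changes was not tested.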

How the data were processed

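The authors deposited log2 expression values; the submitters' processing notes name RMA, which normalizes and summarises probes, and R 2.10.1. How probes were grouped into probe sets is not given in the sources used here. No detection calls were used, so no gene is said to be above background, and the number of arrays limits the precision. Symbols came from the platform annotation (19065 of 22283 probe sets with 1 symbol, 1043 with several, 2107 with none listed and 68 controls); 11955 of 11963 genes were found in the RefSeq table, and promoters are from RefSeq, build GRCh38.p14. A gene was read on its brightest single-symbol probe set. Cluster or variant class was set by symbol.

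Treatment effects were fitted with limma 3.58.1 (lmFit, eBayes; R 4.3.3; two-sided) on all 16 arrays, each cell line being a block, leaving 6 residual degrees of freedom; cell types were compared on 8 arrays each. The pairing comes from the labels, which name the same line untreated and treated, and same-line deviations correlated at 0.33 to 0.643. P-values were adjusted by Benjamini-Hochberg over all 11963 genes and called below 0.05. The steps were tested on simulated data. The members and lists were chosen with earlier results of these data known. Named in full were the 8 highest and 8 lowest called members of each treatment contrast and the brightest member of each family and class, 27 in all; for those with small changes the text gives the fitted value or range and not each line. Alternatives were other scalings, probe set rules, a filter on low genes, no block or a random block, subsets of lines and leaving out each line.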

Additional observations from a re-analysis of the deposited data

Results flagged for a closer look

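In each group of 4 arrays, the highest and lowest level of the 27 members named in full was compared with its neighbours by Dixon's ratio, giving 108 groups, of which chance would mark about 1 in 20. In all, 6 levels stood apart. H2AC25 was at 7.54 in untreated CCRF-CEM, against 8.43 to 8.49 in the other untreated T-cell lines, and at 11.45 in treated Jurkat, against 9.71 to 9.87. H2AP was at 6.02 in treated JB6, against 6.36 to 6.38 in the other treated ALCL lines. H2AZ1 was at 12.47 in untreated Jurkat, against 12.39 to 12.40. H2BC17 was at 5.63 in treated Molt-4, against 5.88 to 5.92. H4C11 was at 6.86 in untreated Jurkat, against 7.68 to 7.83. H4C13 was higher after treatment in 4 of 4 T-cell lines and lower in 4 of 4 ALCL lines, a difference of effects, ALCL minus T-cell, of -0.58. That pattern was picked for its signs; the interaction in the limma fit over all genes had an adjusted p of 0.28.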

How the results depend on the processing

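Of 39 treatment effects called among the members named in full, 12 were called under all alternatives run; over 789 repeats 629 kept call and direction, 149 lost the call and 11 changed sign. Spike centring turned 8 T-cell rises negative: H2AC4 (-0.25), H2AP (-0.33), H2BC11 (-0.24), H2BC15 (-0.32), H3-3A (-0.31), H3C3 (-0.29), H4C11 (-0.17) and H4C13 (-0.26). H2AZ2 turned positive in the ALCL lines on the mean of its probe sets (0.19), and without x_at and s_at probe sets in the ALCL (0.75) and T-cell lines (0.22).

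Without the cell line as a replicate block, 1 histone gene was called lower in each cell type (2 with it in the T-cell lines and 3 in the ALCL lines). Called higher without the block were 27 cluster genes and 0 variants in the T-cell lines (all genes 1868). In the ALCL lines they were 8 and 0 (all genes 442). Median centring gave 27 cluster genes and 0 variants higher in the T-cell lines (all genes 1707). It gave 10 and 0 in the ALCL lines (all genes 758). The numbers of histone genes called higher in the T-cell lines (37), higher in the ALCL lines (12), lower in the T-cell lines (2) and lower in the ALCL lines (3) changed as follows. Higher in the T-cell lines were 16 without the lowest 40% of genes, 19 in lines with and 19 in lines without the 28S rise, 23 after quantile normalization, 12 on spikes and 24 without x_at and s_at probe sets. Higher in the ALCL lines were 20 on the 75th percentile, 1 in the line without the 28S rise (Karpas 299, whose spread was taken to equal that of Jurkat and CCRF-CEM), 7 on spikes and 6 without x_at and s_at probe sets. Lower in the T-cell lines were 0 on the 75th percentile, after quantile normalization, in lines without the 28S rise and without JB6 and Molt-4 (an alternative added after seeing the data), and 1 on the mean of probe sets or without x_at and s_at ones. Lower in the ALCL lines were 0 in the line without the 28S rise and 1 without x_at and s_at probe sets. The averaged effect (36 higher, 3 lower) gave 14 higher without low genes, 17 higher and 0 lower without the 28S rise, 22 higher after quantile normalization, 12 higher and 5 lower on spikes, and 1 lower on the mean of probe sets or without x_at and s_at ones. The interaction (0 lower) gave 2 lower on the 75th percentile and 1 without JB6 and Molt-4. Of untreated lines (1 higher, 1 lower in ALCL), 2 were lower by single probe sets or their mean, 0 lower on spikes or without x_at and s_at ones, and 0 higher and 0 lower without JB6 and Molt-4. Of treated lines (1 lower), 2 were lower by single probe sets, and 0 on spikes, without x_at and s_at ones, or without JB6 and Molt-4.

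Leaving out 1 line at a time gave 18 to 37 higher and 0 to 2 lower in the T-cell lines, 6 to 13 higher in the ALCL lines, 0 to 1 lower in the interaction, 0 to 2 lower in untreated and 0 to 1 lower in treated ALCL lines. The difference of the class medians, cluster minus variant (0.65 in the T-cell and 0.18 in the ALCL lines), was 2.16 and 1.87 without the lowest 40% of genes, 1.67 and 1.40 over members with a mean of at least 6.5, 1.78 and 1.30 over those with an untreated mean of at least 6.5 (both added after seeing the data), and 0.36 in the T-cell lines without x_at and s_at probe sets. In the ALCL lines the medians without x_at and s_at probe sets were 0.28 for cluster genes and 0.28 for variants. The first 2 of these filters use treated arrays too, so a rise helps a gene to pass. Of the 20 cluster genes at 6.5 or more, 5 passed only through treated arrays. The values of these 2 filters do not support a larger difference. With an untreated mean of at least 6.5, the 4 variants that passed all lay at 9 or more. The 15 cluster genes that passed all lay below 9, so that difference is mixed with level and does not support a larger one either. S phase genes called higher (0) were 1 after quantile normalization; chaperones (2) were 4, and 0 on spikes; the processing list (3) was 6, and 0 on spikes, and 1 to 3 with a line left out. Where no line, gene or probe set was removed, the cause was not tested. The main limits are 1 array per line and condition, probe sets that near-identical histone genes may share, and the missing detection calls.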

Other observations

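By family, the median change in the T-cell lines was 0.56 for 6 H1, 1.77 for 8 H2A, 1.57 for 12 H2B, 0.83 for 8 H3 and 0.55 for 8 H4 genes, and in the ALCL lines 0.32, 0.76, 1.05, 0.19 and 0.21. These medians describe the lists and were not tested against each other; on the spike scale those of H1 and H4 were below 0 in both cell types and that of H3 in the ALCL lines. The medians of H3 and H4 rest on genes with probe sets of their own; 2 probe sets shared by 10 H3 genes changed by 3.33 and 1.19 in the T-cell lines and by 3.09 and 0.66 in the ALCL lines, all called by limma.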
